A study of Mus musculus with 8 samples.

Results

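The 10 CC chemokine genes *Ccl2*, *Ccl3*, *Ccl4*, *Ccl5*, *Ccl6*, *Ccl7*, *Ccl9*, *Ccl12*, *Ccl22* and *Ccl24* were selected by gene symbol, and all 10 were found among the 18635 genes of the expression table. Their transcripts were measured by RNA-seq in tumor-educated macrophages (TEMs), which are bone marrow-derived macrophages (BMDMs) kept for 24 h in medium conditioned by the murine mesothelioma line AE17 (AE17-TCM). The comparison asked how loss of PHGDH, the first enzyme of serine synthesis from glycolysis, changed the transcripts of macrophages in this medium. BMDMs without AE17-TCM were not analysed here. The 4 control samples were *Phgdh* fl/fl TEMs (fl/fl TEMs), named WT in the labels although both *Phgdh* alleles carry loxP sites. The 4 deletion samples were *Phgdh* fl/fl *Cx3cr1*-Cre TEMs (Cre TEMs), which share the floxed alleles and also carry Cre in 1 allele of *Cx3cr1*, a gene of monocytes and macrophages. The mice were littermates on a C57BL/6 background, the marrow came from animals of 6 to 8 weeks, and BMDMs were differentiated for 7 days. Because the controls carried no Cre, the deletion of *Phgdh* and the altered *Cx3cr1* allele cannot be told apart in this comparison. The study describes the 4 samples of each genotype as biological replicates, and nothing ties a sample to a single mouse, so that p-values measure only the spread between these samples, which may be technical.

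CC chemokines are small secreted proteins with a pair of adjacent cysteines near the amino terminus. They bind G protein-coupled receptors on leukocytes and guide these cells along a gradient. Macrophages are a main source of CC chemokines in inflamed tissue and in tumors, where different members draw in monocytes, T cells, regulatory T cells, dendritic cells or eosinophils.

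Each value is a normalized count, the reads counted on a gene after scaling by a size factor for each sample. Between 38219563 and 47027420 reads per sample had been assigned to genes. *Phgdh* itself was at 117 ± 9.82 (SD, n = 4) in fl/fl TEMs and 27.1 ± 9.39 (SD, n = 4) in Cre TEMs, and *Cx3cr1* was at 1075 ± 94.2 and 660 ± 32.2 (659.8 before rounding). All 8 macrophage markers examined, among them *Lyz2*, *Adgre1* and *Csf1r*, were present. Their summed normalized count lay between 1030176 and 1121134 in the controls and between 1008585 and 1085172 with the Cre. Most of it was *Lyz2* (mean 719688 and 705962), which was not called, so the sum says little about the other markers. Of these 8, 4 were called lower (*Adgre1*, *Itgam*, *Fcgr1* and *Cd14*, with log2 fold changes between -0.40 and -0.084), against 20.3% of all tested genes. Markers of other cells were sparse or few. Summed normalized counts in the controls and in Cre TEMs were 22.1 to 36.2 and 19.7 to 49.6 for 4 of 6 fibroblast genes, 31.6 to 46.7 and 32.2 to 42.7 for 2 of 6 mesothelial genes, and 25.8 to 32.0 and 22.5 to 47.7 for *Cd4* and *Klrb1c*, 2 of 8 genes of T and NK cells. *S100a8*, 1 of 8 neutrophil genes, was at 467 to 575 and 576 to 631, *Cd79b* and *Ms4a1*, 2 of 4 B cell genes, summed to 197 to 253 and 131 to 167, and *Ccr3*, *Siglecf* and *Prg2*, 3 of 7 genes of eosinophils, basophils and mast cells, to 838 to 894 and 430.3 to 569. Most of this last sum was *Ccr3* (818 and 447), while *Siglecf* was at 37.1 and 38.9 and *Prg2* at 0.477 and 2.46. The part of such other cells in the chemokine values was not tested. The defining T cell genes *Cd3e*, *Cd3d* and *Cd3g* were not analysed here. In bulk RNA, fewer cells that make a transcript and less of that transcript per cell cannot be told apart.

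Of the 10 CC chemokines, 9 averaged at least 10 normalized counts and were tested, and 7 of these 9 differed between the genotypes (limma on log2(normalized count + 1), Benjamini-Hochberg adjusted p under 0.05 over all tested genes). Differences were common in this comparison, since 41.0% of the 13629 tested genes passed the same threshold (41.1% with edgeR and 37.2% with DESeq2 on the recovered reads). *Ccl3*, *Ccl4*, *Ccl5*, *Ccl6* and *Ccl12* were higher in Cre TEMs, where 20.8% of all tested genes were called higher. *Ccl9* and *Ccl22* were lower, where 20.3% of all tested genes were called lower. *Ccl2* and *Ccl7* did not pass, and *Ccl24* was too low to be tested. The groups of 4 samples did not overlap for these 7 genes, against 36.7% of all tested genes. In 5 of them all Cre samples lay above the controls (18.4% of tested genes) and in 2 below (18.2%). The sizes set 3 members apart from the rest, because *Ccl5*, *Ccl9* and *Ccl12* had absolute log2 fold changes above 0.43, the 90th percentile of all tested genes. The median log2 fold change was 0.13 over the 9 tested members and -0.0018 over all tested genes, and the median absolute value was 0.32 against 0.12.

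**Figure D1:**
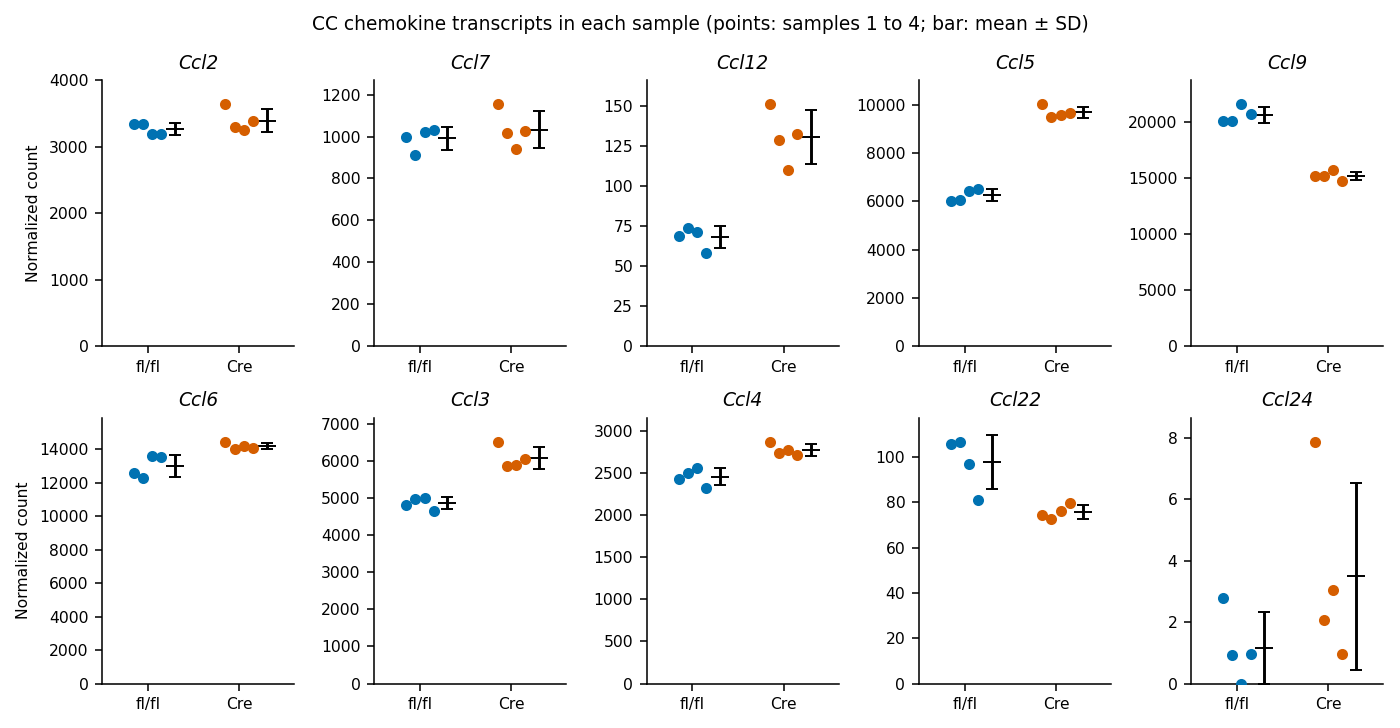
Normalized count of the 10 CC chemokine genes in each sample (points, samples 1 to 4 from left to right) with the mean ± SD (n = 4 per group) for fl/fl TEMs (fl/fl) and Cre TEMs (Cre); each vertical axis starts at 0 and has its own scale. The points of *Ccl12*, *Ccl5*, *Ccl6*, *Ccl3* and *Ccl4* lie higher with the Cre and those of *Ccl9* and *Ccl22* lower, while *Ccl2*, *Ccl7* and *Ccl24* overlap, and the lower bar of *Ccl24* in the fl/fl group is cut at 0.

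*Ccl9* and *Ccl6* are ligands of CCR1 of the same subgroup in rodents, and both are produced in quantity by myeloid cells. They lie next to each other on the minus strand of chromosome 11 (mm10), with *Ccl9* (ENSMUSG00000019122) from 83572919 to 83578636 and *Ccl6* (ENSMUSG00000018927) from 83587882 to 83593087. They were the members with the most reads, and they moved in opposite directions. The 250 bases before their RefSeq starts (GRCm38.p6, the build of mm10, minus strand) are printed 5′ to 3′ because the genes are neighbors of 1 subgroup whose transcripts diverged. They span chr11:83578637-83578886 for *Ccl9* and chr11:83593088-83593337 for *Ccl6*, and capitals mark matches to the motifs named after them.
Ccl9: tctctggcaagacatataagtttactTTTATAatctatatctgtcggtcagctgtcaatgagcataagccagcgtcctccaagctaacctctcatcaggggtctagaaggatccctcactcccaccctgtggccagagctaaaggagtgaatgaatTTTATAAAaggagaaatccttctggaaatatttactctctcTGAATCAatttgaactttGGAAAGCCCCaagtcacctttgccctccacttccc
Ccl6: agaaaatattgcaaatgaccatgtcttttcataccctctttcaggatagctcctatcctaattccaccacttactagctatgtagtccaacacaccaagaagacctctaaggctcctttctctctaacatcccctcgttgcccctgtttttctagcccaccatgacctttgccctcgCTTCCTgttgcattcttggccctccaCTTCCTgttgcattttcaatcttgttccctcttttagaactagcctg

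The motifs named here were searched on both strands of this window, and the shares refer to the same window of 27025 genes. The *Ccl9* window held an NF-kB-like match (GGG and TCC with 4 bases of any kind between them, in 16.3% of genes) at positions -35 to -26 from the start and an AP-1-like match (TGANTCA, in 6.87%) at -53 to -47. It also held the TATA box letters TATAAA (in 13.0%) at -224 to -219, -94 to -89 and -92 to -87, the last 2 of which overlap on opposite strands. The *Ccl6* window held none of these and matched only the ETS core AGGAAG (in 29.2%), at -73 to -68 and -47 to -42. An ISRE-like motif (GAAA and GAAA with 2 bases between them, 3.04%), a GAS-like motif (TTC and GAA with 3 between them, 7.18%) and a STAT6-like motif (TTC and GAA with 4 between them, 5.86%) matched in neither window. A match describes the letters only.

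The normalized count of *Ccl9* was 20061, 20076, 21539 and 20682 in the samples of fl/fl TEMs. In the samples of Cre TEMs it was 15173, 15134, 15666 and 14719.5. The lowest control sample lay 4395 above the highest sample with the Cre, a gap larger than the range within either genotype. *Ccl9* thus fell by 0.44 on the log2 scale (standard error, SE, 0.026, limma adjusted p = 1.86e-11) and reached 0.737 of its control level, a ratio that leaving out single samples kept between 0.729 and 0.748. The genotypes were likewise separated in the other 6 called members. For all 7 an exact permutation test (two-sided) gave p = 0.029, which is as low as 4 samples against 4 can reach. Every gene whose groups do not overlap gets this value, as 36.7% of all tested genes do, so it adds nothing to the separation.

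For *Ccl6* the normalized counts were 12567, 12288, 13566 and 13508 in fl/fl TEMs and 14441, 14025, 14194 and 14066 in Cre TEMs. The genotypes were separated by 458 normalized counts, less than the distance between the lower and the higher pair of control samples. *Ccl6* rose by 0.13 on the log2 scale (SE 0.028, limma adjusted p = 9.32e-04). The ratio of *Ccl6* to *Ccl9* within a sample was 0.630 ± 0.0170 (SD, n = 4) in the controls and 0.935 ± 0.0232 (SD, n = 4) with the Cre. An antisense gene, *E230016K23Rik*, overlaps *Ccl6* and was at 6.71 ± 3.02 and 5.05 ± 3.56, a small fraction of the *Ccl6* count. No stretch of 75 bases, the read length, was shared between any of the 10 chemokine genes and another annotated gene.

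*Ccl3* (MIP-1α), *Ccl4* (MIP-1β) and *Ccl5* (RANTES) are inflammatory chemokines, and *Ccl3* and *Ccl5* bind CCR1. They attract effector T cells, natural killer cells and monocytes. All 3 rose in Cre TEMs, in the order *Ccl5*, *Ccl3*, *Ccl4*, and the 95% intervals of their log2 fold changes did not overlap.

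The normalized count of *Ccl5* (ENSMUSG00000035042, minus strand of chromosome 11, 83525778 to 83530518) was 6011, 6046, 6418 and 6494 in fl/fl TEMs. With the Cre it was 10013, 9481, 9565 and 9659. The gap of 2987 between the groups exceeded the range within each of them. The log2 fold change was 0.63 (SE 0.028, limma adjusted p = 2.63e-13), with a 95% interval of the ratio from 1.49 to 1.61, and *Ccl5* ranked at 595 of the 13629 tested genes by absolute log2 fold change.

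*Ccl3* (ENSMUSG00000000982, minus strand, 83647844 to 83649355) was at 4801, 4975, 4992 and 4642 in fl/fl TEMs and at 6508, 5863, 5892 and 6038 in Cre TEMs. Replicate 1 of the Cre TEMs stood above the other 3, and even the lowest of these lay 872 above the controls. The log2 fold change was 0.32 (SE 0.032, limma adjusted p = 6.03e-08).

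*Ccl4* (ENSMUSG00000018930, plus strand, 83662584 to 83664683) had normalized counts of 2425, 2502, 2564 and 2327 in the controls and 2870.3, 2739, 2774 and 2717 with the Cre. The groups were 154 apart, and the spread was smaller with the Cre than without it. The log2 fold change was 0.18 (SE 0.032, limma adjusted p = 1.32e-04). *Ccl3* and *Ccl4* lie 13.2 kb apart on opposite strands, and the ratio of *Ccl3* to *Ccl4* within a sample rose from 1.98 ± 0.0213 to 2.19 ± 0.0679 (SD, n = 4 each) without overlap of the samples.

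*Ccl2* (MCP-1), *Ccl7* (MCP-3) and *Ccl12* (MCP-5) are ligands of CCR2, the receptor that brings inflammatory monocytes from the blood into tissue. Among them only *Ccl12*, which had far fewer reads than the other 2, passed the test.

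*Ccl2* (ENSMUSG00000035385, plus strand of chromosome 11, 82035571 to 82037453) was at 3348, 3348, 3193 and 3192 in fl/fl TEMs and at 3638, 3304, 3255 and 3383 in Cre TEMs. The groups overlapped. The log2 fold change was 0.053 (SE 0.033, limma adjusted p = 0.214), with a 95% interval of the ratio from 0.989 to 1.09, so that a change of the size seen for *Ccl3* lay outside the interval. The antisense gene *Gm17268*, which overlaps *Ccl2*, was not analysed here.

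*Ccl7* (ENSMUSG00000035373, plus strand, 82045712 to 82047525) was at 1000.3, 913, 1021 and 1029 in the controls and at 1153, 1017, 938 and 1025 with the Cre. The groups overlapped here too, and replicate 1 of the Cre TEMs was the highest of all 8. The log2 fold change was 0.058 (SE 0.053, limma adjusted p = 0.409), with a 95% interval of the ratio from 0.964 to 1.12. Within a sample, *Ccl7* was at 0.303 ± 0.0231 of *Ccl2* in the controls and 0.304 ± 0.0120 with the Cre (SD, n = 4 each), and these ratios overlapped.

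*Ccl12* (ENSMUSG00000035352, plus strand, 82101845 to 82103400) was at 68.8, 73.6, 71.3 and 58.2 in fl/fl TEMs, from 61 to 80 reads per sample. In Cre TEMs it was at 151, 129, 109.8 and 132, from 108 to 136 reads. The groups lay 36.2 apart. *Ccl12* rose by 0.93 on the log2 scale (SE 0.13, limma adjusted p = 4.56e-06), or 1.92-fold, and the fold stayed between 1.82 and 2.02 when single samples were left out. It had the highest absolute log2 fold change of the tested members and ranked at 219 of the 13629 tested genes. Counting error alone gives a coefficient of variation of 11.9% in the controls and 8.93% with the Cre at these read numbers, and the observed values were 10.0% and 12.9%. Relative to *Ccl2*, *Ccl12* moved from 0.0208 to 0.0383 (ratio of the normalized counts within a sample, mean of 4).

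The 250 bases before the RefSeq start of *Ccl12* (GRCm38.p6, chr11:82101595-82101844, plus strand) are given because this gene changed apart from its neighbors of the same receptor group, and capitals again mark motif matches.
Ccl12: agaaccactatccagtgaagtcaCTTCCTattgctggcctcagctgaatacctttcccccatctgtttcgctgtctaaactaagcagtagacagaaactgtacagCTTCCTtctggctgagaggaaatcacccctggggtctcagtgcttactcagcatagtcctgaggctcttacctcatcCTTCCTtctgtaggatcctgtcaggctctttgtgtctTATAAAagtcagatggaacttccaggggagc
This window held the TATA box letters at -31 to -26 and the ETS core at -227 to -222, -145 to -140 and -68 to -63. It held no NF-kB-like, AP-1-like, ISRE-like, GAS-like or STAT6-like match. Windows were also searched for *Ccl22* and *Ccl3*. That of *Ccl22* held an NF-kB-like match at -131 to -122 and an ETS core at -17 to -12, and that of *Ccl3* held none of the motifs. Only the first 156 of the 250 bases of the *Ccl22* window lie before the gene start in GENCODE. The NF-kB-like match of *Ccl22* lies in this part, but its ETS core lies inside the annotated gene.

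*Ccl22* (MDC) is a ligand of CCR4, a receptor of regulatory T cells and type 2 helper T cells, and it is made by dendritic cells and alternatively activated macrophages. It lies on the plus strand of chromosome 8 (ENSMUSG00000031779, 94745590 to 94751699), apart from the chromosome 11 genes. Its normalized count was 106, 107, 97.2 and 81.1 in fl/fl TEMs and 74.3, 72.7, 76.2 and 79.7 in Cre TEMs. The groups were separated by only 1.34 normalized counts, because control replicate 4 lay near the samples with the Cre. *Ccl22* fell by 0.36 on the log2 scale (SE 0.12, limma adjusted p = 0.0261), from between 85 and 116 reads per sample to between 66 and 82. At these read numbers counting error alone gives a coefficient of variation of 9.89% in the controls and 11.7% with the Cre. The observed values were 12.2% and 3.99%, so the Cre samples lay closer together than counting error alone gives. The call was lost with DESeq2 on the recovered reads (adjusted p = 0.0546) and when control replicate 1 (0.0730) or 2 (0.0736) or Cre replicate 1 (0.0519) or 2 (0.0602) was left out of the limma fit. The dendritic cell markers were higher in sum. The 4 of 7 in the table added up to between 463 and 532 normalized counts in the controls and between 831 and 987 with the Cre, nearly all of it *Itgax*, an integrin that macrophages also express (log2 fold change 0.88, limma adjusted p = 2.80e-10). *Zbtb46*, a factor of conventional dendritic cells, was at 16.7 and 27.5 (log2 fold change 0.79, limma adjusted p = 0.0642), and *Xcr1*, *Cd209a* and *Siglech* were not analysed here. The part of such cells in the chemokine values was not tested.

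*Ccl24* (eotaxin-2) is a ligand of CCR3, the receptor of eosinophils, and is used as a marker of alternatively activated macrophages. It lies on the minus strand of chromosome 5 (ENSMUSG00000004814, 135569937 to 135573049). Its reads were 3, 1, 0 and 1 in the samples of fl/fl TEMs and 7, 2, 3 and 1 in those of Cre TEMs, 5 against 13 in all. The groups overlapped (exact two-sided permutation test, p = 0.143), and a difference was not detectable at this depth.

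**Figure D2:**
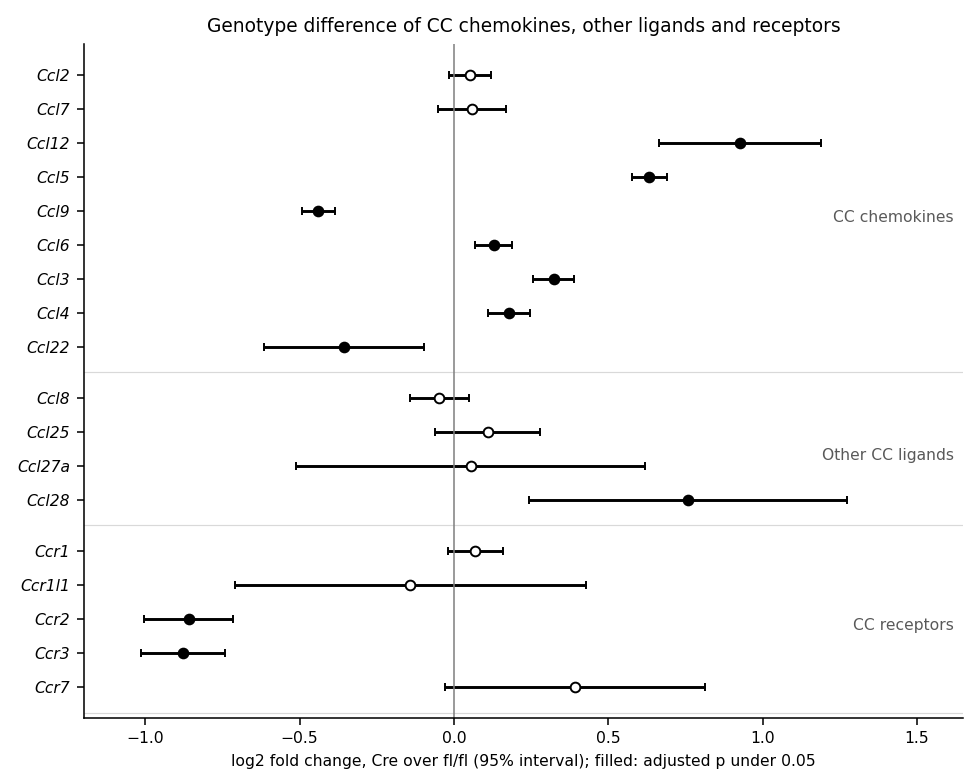
Log2 fold change of Cre TEMs relative to fl/fl TEMs (limma) with 95% intervals for the 9 tested CC chemokines, 4 other CC ligands and 5 CC receptors; filled points have an adjusted p under 0.05. Among the 9 members *Ccl12* at 0.93 and *Ccl5* at 0.63 are the highest, *Ccl22* at -0.36 and *Ccl9* at -0.44 the lowest, and the intervals of *Ccl2* and *Ccl7* reach across 0.

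In normalized counts, which are not corrected for gene length, the sum over the 10 genes was nearly the same in both genotypes, while its makeup differed. The summed normalized count was 50391, 50329, 53462 and 52015 in fl/fl TEMs and 54029, 51767, 52474 and 51820.3 in Cre TEMs, 51549 ± 1495 against 52523 ± 1054 (SD, n = 4 each), and the groups overlapped. Without *Ccl9* the sum was 30960 ± 809 (30959.8 before rounding) against 37349.7 ± 1023, a ratio of 1.21 with no overlap. Without both *Ccl5* and *Ccl9* it was 24717 against 27670.1, a ratio of 1.12, also with no overlap.

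Per sample, *Ccl9* made up 39.9% ± 0.240 of the summed normalized count in the controls and 28.9% ± 0.803 with the Cre (SD, n = 4 each). *Ccl5* went from 12.1% ± 0.254 to 18.4% ± 0.190, and *Ccl6* from 25.2% ± 0.659 to 27.0% ± 0.187. *Ccl3* went from 9.42% to 11.6% and *Ccl4* from 4.76% to 5.28%. *Ccl2* (6.35% and 6.46%) and *Ccl7* (1.92% and 1.97%) moved by less than 0.2 percentage points, and *Ccl12* and *Ccl22* stayed under 0.3%. Per length the shares were different. FPKM here is reads per length of exon and per total recovered reads of the sample. Of the summed FPKM, *Ccl9* made up 19.4% ± 0.196 and 12.6% ± 0.471, and *Ccl5* 18.7% ± 0.490 and 25.4% ± 0.145 (SD, n = 4 each). On this scale the shares of *Ccl6* (20.8% and 19.9%), *Ccl2* (8.26% and 7.52%) and *Ccl7* (3.55% and 3.25%) were lower with the Cre. That of *Ccl4* was nearly level (10.7% ± 0.406 and 10.6% ± 0.112), and that of *Ccl3* was at 18.2% and 19.99%. These are shares of a sum. The mean FPKM of *Ccl2*, *Ccl3*, *Ccl4*, *Ccl5*, *Ccl6* and *Ccl7* was higher with the Cre, and that of *Ccl9* was lower. Replicate 1 of the Cre TEMs, which also had the fewest reads, was the highest of its group for 8 of the 10 genes, all but *Ccl9* and *Ccl22*. Without it, 5 members were called higher and 1 lower.

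**Figure D3:**
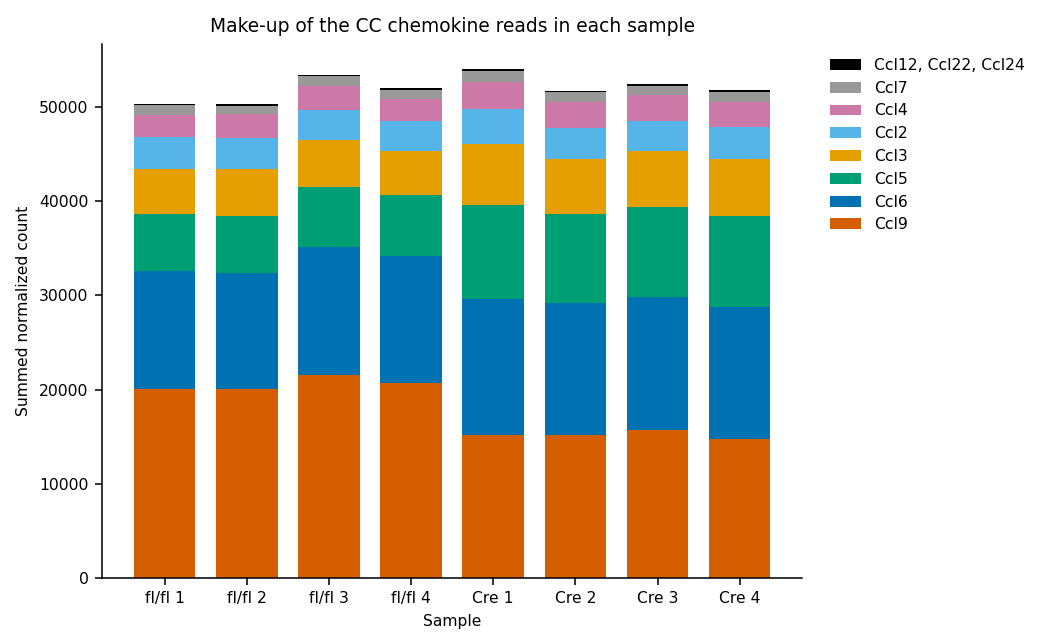
Summed normalized count of the 10 CC chemokines in each of the 8 samples, stacked by gene (vertical axis from 0). The stacks have similar heights, between 50329 and 54029, while the segment of *Ccl9* is smaller and that of *Ccl5* larger in the 4 samples with the Cre.

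Levels of different genes were compared per length, as FPKM. For this, recovered reads were divided by exon length and by the total recovered reads of the sample. In fl/fl TEMs the order was *Ccl6* (167 ± 8.10), *Ccl9* (156 ± 5.02), *Ccl5* (150.05 ± 5.75) and *Ccl3* (146 ± 4.96), then *Ccl4* (85.8 ± 3.55), *Ccl2* (66.3 ± 1.93) and *Ccl7* (28.5 ± 1.51; SD, n = 4 each). Each of the first 4 overlapped its neighbor in this order over the samples, and *Ccl4* and those after it did not. *Ccl12* (2.92 ± 0.295), *Ccl22* (0.970 ± 0.120) and *Ccl24* (0.0208 ± 0.0209) were far lower. In Cre TEMs *Ccl5* came first at an FPKM of 235 ± 5.15, between 231 and 243 and so above every other member. *Ccl3* (185 ± 8.67) and *Ccl6* (184 ± 2.15) followed and overlapped each other, and *Ccl9* (116 ± 3.10) came next, above *Ccl4* (98.1 ± 2.25). The rest kept their order, with *Ccl2* at 69.6 ± 3.33, *Ccl7* at 30.1 ± 2.53, *Ccl12* at 5.66 ± 0.718, *Ccl22* at 0.760 ± 0.0298 and *Ccl24* at 0.0629 ± 0.0546. Because *Ccl9* has the longest exon length of the 10 genes (3045 bases), its fall weighed less in FPKM, and the summed FPKM was 804 ± 17.8 in the controls and 925 ± 23.3 with the Cre (SD, n = 4 each), a ratio of 1.15 without overlap.

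**Figure D4:**
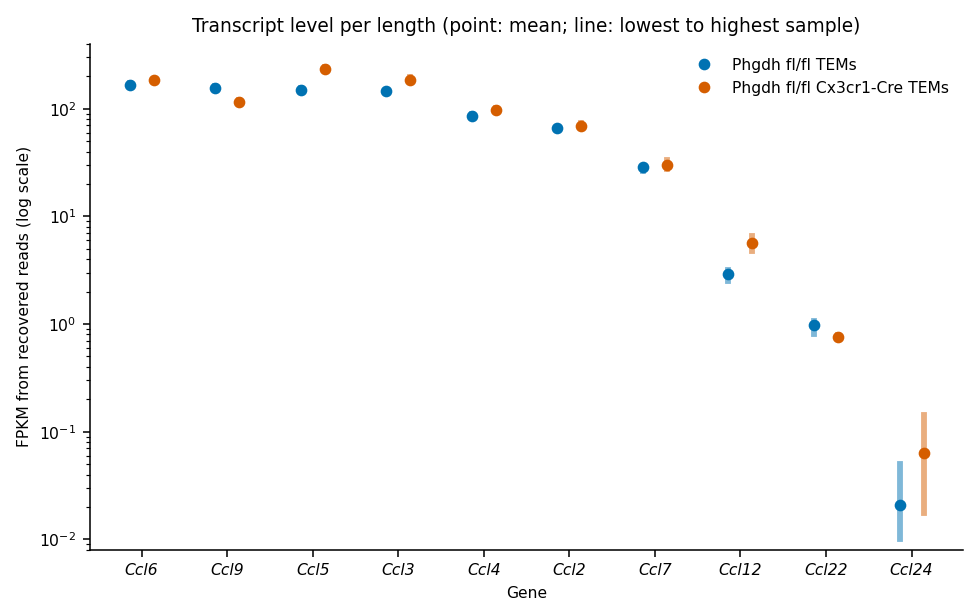
FPKM of the 10 CC chemokines on a log scale, with the mean (point) and the lowest to highest sample (line) for fl/fl TEMs and Cre TEMs; the line of *Ccl24* in fl/fl is cut at the foot of the axis because 1 sample was at 0. *Ccl6*, *Ccl9*, *Ccl5* and *Ccl3* lie close together in the controls, whereas *Ccl5* lies highest with the Cre.

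Of the 9 tested members, 8 lie in 2 clusters on chromosome 11, and the log2 fold changes of the chemokine genes ran from -0.048 to 0.93 in the first and from -0.44 to 0.63 in the second. The first cluster runs over 81.2 kb from *Ccl2* through *Ccl7* and *Ccl12* to *Ccl8*, and only *Ccl12* passed the test in it, although *Ccl8* starts 11.8 kb further on. The second runs over 139 kb from *Ccl5* through *Ccl9*, *Ccl6* and *Ccl3* to *Ccl4*, and all 5 passed. *Ccl9* fell there while *Ccl6*, 9.25 kb away, and *Ccl5*, 42.4 kb away on the other side, rose. No other tested gene lies inside either cluster. Within 1 Mb of the second cluster, 5 of 32 tested neighbors were called higher and 8 lower, with a median log2 fold change of -0.043. Within 1 Mb of the first, 2 of 14 were called higher and 4 lower, with a median of -0.051, and the windows share some genes. The shares over all tested genes were 41.0% called, 20.8% higher and 20.3% lower, so the neighbors were called about as often as genes at large.

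**Figure D5:**
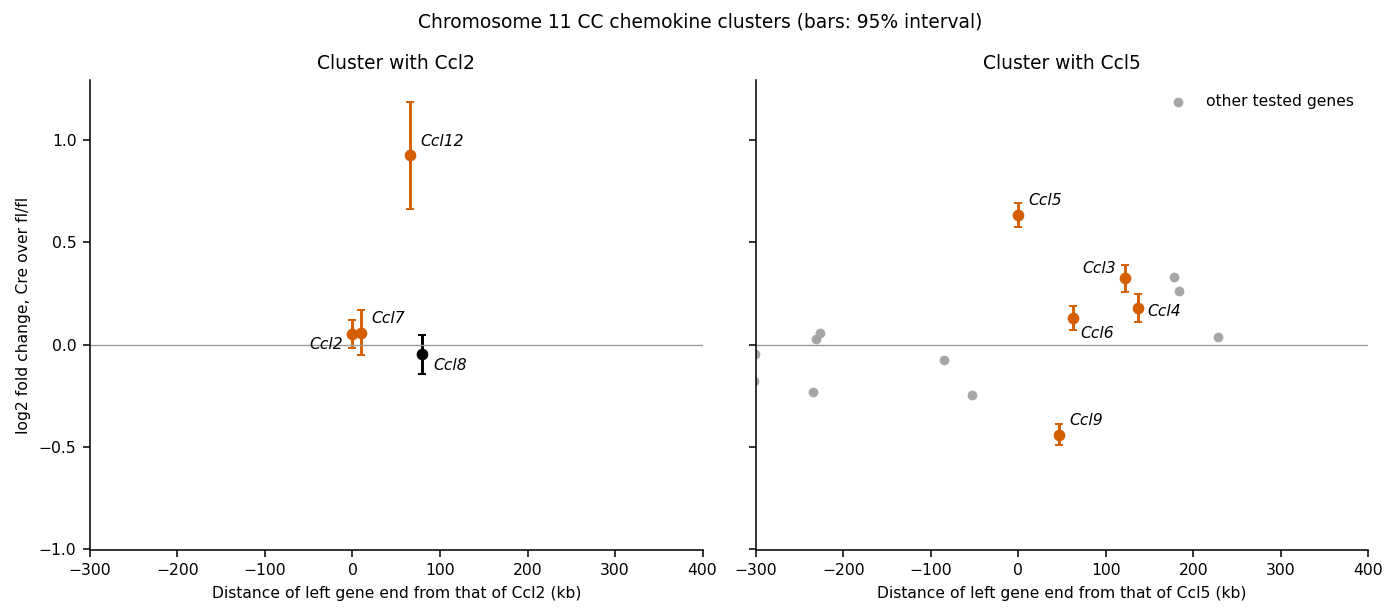
Log2 fold change (limma, with 95% interval for the chemokine genes) against the distance of the left end of each gene, in kb, from that of *Ccl2* or *Ccl5* on chromosome 11; grey points are other tested genes, and *Ccl8*, in black, is not among the 10 members. *Ccl12* at 0.93 stands above *Ccl2*, *Ccl7* and *Ccl8*, and *Ccl9* at -0.44 stands below *Ccl5*, *Ccl6*, *Ccl3* and *Ccl4*.

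Of 14 further CC chemokine ligands listed for mouse, 4 were in the table, and 1 of these passed the test, against 41.0% of all tested genes. *Ccl8*, a ligand of CCR8 in mice, was at 2265 ± 123 and 2193 ± 172 (log2 fold change -0.048, limma adjusted p = 0.426). *Ccl28*, a mucosal chemokine, was at 16.7, 13.8, 14.5 and 17.2 in the controls and at 27.0, 37.4, 20.3 and 25.3 with the Cre. All samples with the Cre lay above the controls (log2 fold change 0.76, SE 0.25, limma adjusted p = 0.0179), but the call was lost without Cre replicate 2 (limma adjusted p = 0.0894). *Ccl25*, which guides thymocytes, had a log2 fold change of 0.11 (limma adjusted p = 0.301), and 1.48% of its 75-base stretches are shared with *Elavl1* on the other strand. *Ccl27a*, a chemokine of skin, had one of 0.054 (limma adjusted p = 0.898), and 33.3% of its stretches are shared with other genes. *Ccl1*, *Ccl11*, *Ccl17*, *Ccl19*, *Ccl20*, *Ccl21a*, *Ccl21b*, *Ccl21c*, *Ccl26* and *Ccl27b* were not analysed here.

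Among the CC chemokine receptors, 6 were tested, of which 3 were lower and 0 higher. The shares over all tested genes were 20.3% lower and 20.8% higher. *Ccr2*, the receptor of *Ccl2*, *Ccl7* and *Ccl12*, fell by 0.86 on the log2 scale (limma adjusted p = 3.00e-09). *Ccr3*, the receptor of *Ccl24*, was at 818 ± 25.6 and 447 ± 53.1 (SD, n = 4 each) and fell by 0.88 (SE 0.065, limma adjusted p = 7.90e-10). *Ccr1*, the receptor of *Ccl6* and *Ccl9*, lay between 1539 and 1731 in the controls and between 1612 and 1799.99 with the Cre, with a log2 fold change of 0.070 (limma adjusted p = 0.200) and overlapping groups. Without Cre replicate 1, its lowest Cre sample, it was called higher (log2 fold change 0.11, limma adjusted p = 0.0442). *Ccr7*, of dendritic cell and lymphocyte migration, had a log2 fold change of 0.39 (limma adjusted p = 0.131) and *Ccr1l1* one of -0.14 (limma adjusted p = 0.715). *Ccr4*, the receptor of *Ccl22*, was not analysed here. *Ccr1*, *Ccr2* and *Ccr3* lie between 3.89 and 4.03 Mb from *Cx3cr1* on chromosome 9, the locus that carries the Cre.

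*Ccrl2*, an atypical receptor that presents chemerin and does not signal, was at 389 ± 12.7 and 607 ± 29.0 (SD, n = 4 each) and rose by 0.64 on the log2 scale (SE 0.055, limma adjusted p = 7.25e-09). *Ackr4*, a scavenger of several CC chemokines, was at 23.2 and 16.4 (log2 fold change -0.48, limma adjusted p = 0.160). All 4 tested proteases that trim chemokines passed the test, as did 41.0% of all tested genes. *Mmp12*, which cleaves several CC chemokines, was at 56271 ± 1399 and 82352 ± 5450 (SD, n = 4 each; log2 fold change 0.55, limma adjusted p = 5.52e-11). *Mmp14* had a log2 fold change of 0.44 (limma adjusted p = 4.77e-07), and *Mmp9*, a gelatinase, fell by 1.36. *Dpp4*, which removes the first residues of *Ccl5* and *Ccl22* proteins, lay between 9.20 and 18.1 in the controls and between 19.1 and 31.2 with the Cre (log2 fold change 0.98, limma adjusted p = 0.00797). On log2(FPKM + 1) its log2 fold change was 0.063 (limma adjusted p = 0.0597), since the added 1 exceeds the FPKM of this gene.

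Of 16 transcription factors known to act on CC chemokine genes, 3 were called higher, 6 lower and 7 neither. Over all tested genes, 20.8% were called higher and 20.3% lower. *Irf4*, a factor of alternative activation, rose from 35.2 ± 5.48 to 55.1 ± 4.83 (log2 fold change 0.64, limma adjusted p = 0.00451), and *Nfkb1* and *Nfkb2* rose by 0.062 and 0.17. *Fos* of AP-1 fell by 0.38 (limma adjusted p = 1.67e-08) and *Spi1*, the ETS factor PU.1, by 0.21 (limma adjusted p = 3.41e-07). *Irf3* (-0.11), *Junb* (-0.083) and *Stat6* (-0.059) were lower as well. The calls of *Nfkb1*, *Junb* and *Stat6* were lost when any of several single samples was left out and under other settings of the scaling, the filter or the variance trend (limma adjusted p up to 0.145, 0.112 and 0.106), and that of *Irf3* without Cre replicate 3 (0.0506). These are transcript levels of the factors, and their binding to the chemokine genes was not measured.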

How the data were processed

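Total RNA of 4 fl/fl TEM and 4 Cre TEM samples was sequenced with 75-base reads from directional libraries. The submitters' processing notes name TopHat2, HTSeq 0.6, DESeq2 and mm10. The authors deposited a signal for each gene in each sample. The values are normalized counts (reads over a size factor per library), although the table is named for FPKM. Whole reads were recovered for 100% of the 144353 values above 0 (tolerance 0.01). The 6 columns of the authors' own comparison (mean, log2 fold change, standard error, statistic, p-value and adjusted p-value) were not used.

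Both genotypes entered a single fit (limma 3.58.1 under R 4.3.3, moderated with a mean-variance trend, two-sided, adjusted by Benjamini-Hochberg) on log2(normalized count + 1), which understates changes of low genes, over genes with a mean of at least 10. On the recovered reads, edgeR 4.0.16 called 5608 genes and DESeq2 1.42.0 called 5066, against 5594 with limma. The other alternatives were pseudocount 0.1, no filter, a mean of at least 100, eBayes without trend, quantile normalization, total-read scaling, FPKM, a replicate block and leaving out each sample. Permutation tests used all 70 labelings (Python 3.11.15). Fits were checked on simulated data.

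Positions and exon lengths came from GENCODE M21 and promoters from RefSeq, which matched 5 of the 10 members. The kit keeps the strand, but the strand setting of the counting is not given in the sources used here, so that reads of overlapping antisense genes may have been counted at either gene. The members and lists were chosen with earlier results of these data known. Named were all members, *Phgdh*, *Cx3cr1*, receptors of the members, lists of 5 or fewer, and of each other list up to 4 called genes of the largest absolute log2 fold change. Further genes, such as *E230016K23Rik*, *Ccr1l1*, *Ccr7*, *Nfkb1*, *Nfkb2*, *Irf3*, *Junb*, *Stat6* and cell type markers, were named after their values were seen. The results of 2 genes of the fixed lists are not reported here on their own, and the counts include them.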

Additional observations from a re-analysis of the deposited data

Results flagged for a closer look

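In 44 sets of 4 samples (the chemokine and receptor genes examined, per genotype), 3 held a sample far from the other 3 of its group by Dixon's criterion, which chance alone meets in about 1 of 20 sets. None of the 3 concerned one of the 10 chemokines. The lowest sample of *Ccr1*, the receptor of *Ccl6* and *Ccl9*, in Cre TEMs had a normalized count of 1612, and the others lay between 1789 and 1799.99. The lowest sample of *Ccr1l1* in fl/fl TEMs was at 12.9, and the others lay between 21.4 and 22.7. The highest sample of *Ccr9* in fl/fl TEMs was at 3.68, against 0.930 to 1.03 in the others, a difference of a few reads.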

How the results depend on the processing

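The number of genes called, 5594, lay between 4930 and 5944 over the alternatives, and that of members called higher between 4 and 5. The number of members called lower, 2, became 1 with the mean of at least 100, which drops *Ccl12* and *Ccl22*, and with DESeq2, and it lay between 1 and 2 with each sample left out. The log2 fold change of *Ccl22* did not pass with DESeq2 (-0.37) and lay between -0.44 and -0.31 with each sample left out. On FPKM it was -0.16, where the added 1 weighs more. Every other member kept its direction and its side of the threshold under each alternative that tested it. *Ccl12* lay between 0.76 and 1.01, *Ccl5* between 0.62 and 0.65, *Ccl9* between -0.46 and -0.39, *Ccl2* between 0.019 and 0.073 and *Ccl7* between 0.0042 and 0.10. The ratio of the summed normalized counts lay between 1.009 and 1.032 with total-read scaling and each sample left out, but that of the summed FPKM was 1.15. The replicate block called 5597 genes, 5 members higher and 2 lower. Samples of the same number were not taken as pairs, since their deviations correlated at 0.063, 0.098, 0.13 and 0.078, not all over 0.1. Those of unlike number correlated between -0.12 and 0.13, and a structure shared by the genotypes was not tested. Depth limits *Ccl24*, and counting error limits *Ccl12* and *Ccl22*.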
